A study of Mus musculus with 10 samples.

Results

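Selectins are adhesion lectins that catch leukocytes as they move along vessel walls, and they bind fucosylated and sialylated sugars carried by a small set of cell-surface proteins. The carriers described here are 4 genes chosen by name of the 32285 genes in the expression matrices: Selplg, Cd44, Spn and Glg1. Selplg encodes PSGL-1, the main P-selectin ligand of leukocytes. Spn encodes CD43, a long sialomucin of leukocytes that can bind E-selectin. Cd44 encodes the hyaluronan receptor, certain glycoforms of which bind selectins. Glg1 encodes a Golgi glycoprotein also known as E-selectin ligand 1. Such a protein binds a selectin only once fucosyltransferases have decorated it, so RNA levels do not report the ligand itself.

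The data come from subcutaneous SW1 tumors, a mouse melanoma line, grown in female C3H/HeJ mice that were injected at 4 to 6 weeks of age. All groups carried the tumor, and none carried an engineered allele. The 5 groups were a pretreatment cohort at day 0, mice on control water at day 7 and day 21, and mice given L-fucose (L-fuc) in the drinking water at day 7 and day 21. The labels give the dose as 100 mM in one protocol and in nanomolar units in the other, tumor growth before treatment as 10 days against a longer time in the study's methods, and cohorts of either 5 or 6 mice with 3 at pretreatment. Each group is 1 library of cells pooled over mice after sorting for CD45. There is therefore no replicate of a condition, a ratio between L-fuc and control is 1 library over 1 library, and its interval covers counting error only.

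Barcodes with at least 500 genes and at most 10% mitochondrial unique molecular identifiers (UMIs, each marking 1 captured RNA molecule) were kept. They numbered 1470 at pretreatment, 17897 (control) and 9034 (L-fuc) at day 7, and 1573 (control) and 1182 (L-fuc) at day 21, with median depths of 2890.5 to 8201 UMIs. Barcodes were gated as T cells (Cd3 genes), NK cells (Ncr1 or Klrb1c without Cd3), macrophages (C1q genes), tumor (Sox10 without Ptprc) or other, and Ptprc encodes CD45. All 4 T cell markers, Trac, Lck, Cd2 and Cd28, were detected in the T cells of every library. Detection alone does not set the gate apart, since all 4 were also detected in tumor barcodes of the control day 7 library. There they summed to 399 UMIs per 1000000 UMIs of the pool in T cells. The sum was 125 in NK cells, 21.1 in macrophages, 8.75 in tumor and 45.1 in other barcodes of that library. A T cell receptor chain was found in at most 1.26% of NK-gated barcodes of a library. The share of T-gated barcodes with such a chain was 79.2% at pretreatment. It was 51.8% (control) and 57.4% (L-fuc) at day 7, and 77.6% (control) and 44% (L-fuc) at day 21. Although the cells were sorted for CD45, tumor barcodes made up 17.7% to 47.4% of those kept, with the highest share in the control day 7 library. That library also held the most tumor RNA within immune classes. The summed level of Mitf, Pmel and Erbb3 in its T cells was 91.3 CPM (UMI counts of a gene or list per 1000000 UMIs of the pool), against 12.6 to 43.3 in the T cells of the other libraries. Erbb3 alone was also highest there, at 61.3 against 2.37 to 34.6. In its NK cells the sum was 139 against 9.36 to 63.3, and in its macrophages 95.7 against 32.7 to 58.7. Between 2.42% and 8.71% of the barcodes of a library met more than 1 gate, and any 2 libraries shared 3 to 433 barcodes. The T and NK cell gates were more mixed. Among T-gated barcodes, 84 of 477 at pretreatment, 529 of 1497 (control) and 528 of 1820 (L-fuc) at day 7 met another gate. At day 21 it was 13 of 67 (control) and 16 of 50 (L-fuc). For NK cells it was 7 of 26, 231 of 637, 169 of 734, 15 of 24 and 22 of 46 in the same order. For macrophages it was 2 of 368, 158 of 1347, 90 of 1466, 10 of 762 and 19 of 383. Barcodes that also met the T or NK cell gate were counted in those classes, not as macrophages.

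In the GRCm38 mouse genome with GENCODE vM21, all 4 carriers are protein-coding genes on the minus strand. Selplg lies at chr5:113818536-113832644, Cd44 at chr2:102811141-102901665, Spn at chr7:127132232-127137823 and Glg1 at chr8:111154421-111259216. The 250 bases before the RefSeq start site (build GRCm38.p6) are shown for the 3 carriers that the table held, so that the start regions of Spn, low in tumor, and of Cd44 and Glg1, present in every class, can be compared. Capitals mark CG dinucleotides.
Spn: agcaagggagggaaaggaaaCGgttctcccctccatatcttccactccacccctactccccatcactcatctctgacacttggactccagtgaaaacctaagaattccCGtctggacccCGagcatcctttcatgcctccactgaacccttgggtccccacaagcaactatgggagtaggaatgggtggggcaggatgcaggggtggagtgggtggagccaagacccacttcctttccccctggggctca
Cd44: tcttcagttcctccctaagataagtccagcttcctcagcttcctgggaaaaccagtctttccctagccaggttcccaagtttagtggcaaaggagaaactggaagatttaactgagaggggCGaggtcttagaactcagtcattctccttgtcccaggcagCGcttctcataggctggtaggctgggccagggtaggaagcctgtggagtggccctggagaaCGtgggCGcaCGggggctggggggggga
Glg1: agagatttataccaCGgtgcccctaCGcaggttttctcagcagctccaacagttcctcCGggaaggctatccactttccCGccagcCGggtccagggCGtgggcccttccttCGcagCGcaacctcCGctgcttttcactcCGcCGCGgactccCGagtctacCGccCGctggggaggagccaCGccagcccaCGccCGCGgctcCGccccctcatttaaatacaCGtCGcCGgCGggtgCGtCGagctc
These windows are chr7:127137824-127138073 for Spn, chr2:102901666-102901915 for Cd44 and chr8:111259211-111259460 for Glg1, each on the minus strand and written 5′ to 3′. The Spn window holds 3 CG dinucleotides, the Cd44 window 5 and the Glg1 window 26. Over the 32851 mouse promoters in the same table the median was 6, and 90.4% held fewer than Glg1. The Glg1 window also held 2 GC boxes (GGGCGG on either strand), a motif that 32.7% of all windows held and that the Spn and Cd44 windows did not hold. The match is a description of letters and says nothing of which factors bind.

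Selplg had the largest difference between leukocytes and tumor barcodes of the 4 carriers. In T cells its level was 348 CPM at pretreatment, 221 in the control day 7 library, 367 with L-fuc at day 7, 370 in the control day 21 library and 221 with L-fuc at day 21. NK cells held 412, 148, 412, 424 and 229 in the same order. Macrophages held 186, 130, 160, 267 and 207. In tumor barcodes the level was 0.447 to 6.06, with 2 UMIs in all at pretreatment and 413 in the control day 7 library. No immune pool thus overlapped a tumor pool. The share of all genes with pools so far apart was not computed, and the tumor gate alone left out barcodes with a Ptprc UMI. The log2 difference from tumor was 7.15 ± 0.69 (SE) in T cells, 7.25 ± 0.70 in NK cells and 6.80 ± 0.68 in macrophages, with adjusted p of 3.6e-07, 6.9e-07 and 4.2e-07 in edgeR's quasi-likelihood test over 20 pools of 5 libraries. Such differences were common across the genome: 61.7% of the 12588 genes tested were called between T cells and tumor, 51.4% between NK cells and tumor, and 67.5% between macrophages and tumor.

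Spn, the second sialomucin, followed the same classes at lower contrast. T cells held 64.5, 72.4, 103, 122 and 58.7 CPM in the order given above. NK cells held 42.1, 49.8, 107, 94.9 and 74.7. Macrophages lay in a narrow range of 42.0 to 55.7, and tumor barcodes between 1.57 and 8.10. Again no immune pool overlapped a tumor pool, under the same limits. The log2 difference from tumor was 4.15 ± 0.29 (SE) in T cells, 3.98 ± 0.30 in NK cells and 3.66 ± 0.28 in macrophages (edgeR, adjusted p = 2.5e-08, 1.2e-07 and 3.2e-08). T cells held more Spn than macrophages in 5 of 5 libraries, by 1.05 to 2.33 times, and the same held for Selplg, by 1.07 to 2.30 times. Neither difference between T cells and macrophages passed the test across all genes (Spn log2 0.49 ± 0.25, adjusted p = 0.15; Selplg 0.35 ± 0.52, adjusted p = 0.67). When the tumor pools were left out of the fit, Spn was called (log2 0.55, adjusted p = 0.033) and Selplg was not (adjusted p = 0.065). The order also depends on what the UMIs are divided by. Per 100 Ptprc UMIs, Selplg was lower in T cells than in macrophages in every library, at 49.5 to 73.5 against 53.8 to 122, and Spn was lower in 4 of 5.

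**Figure D1:**
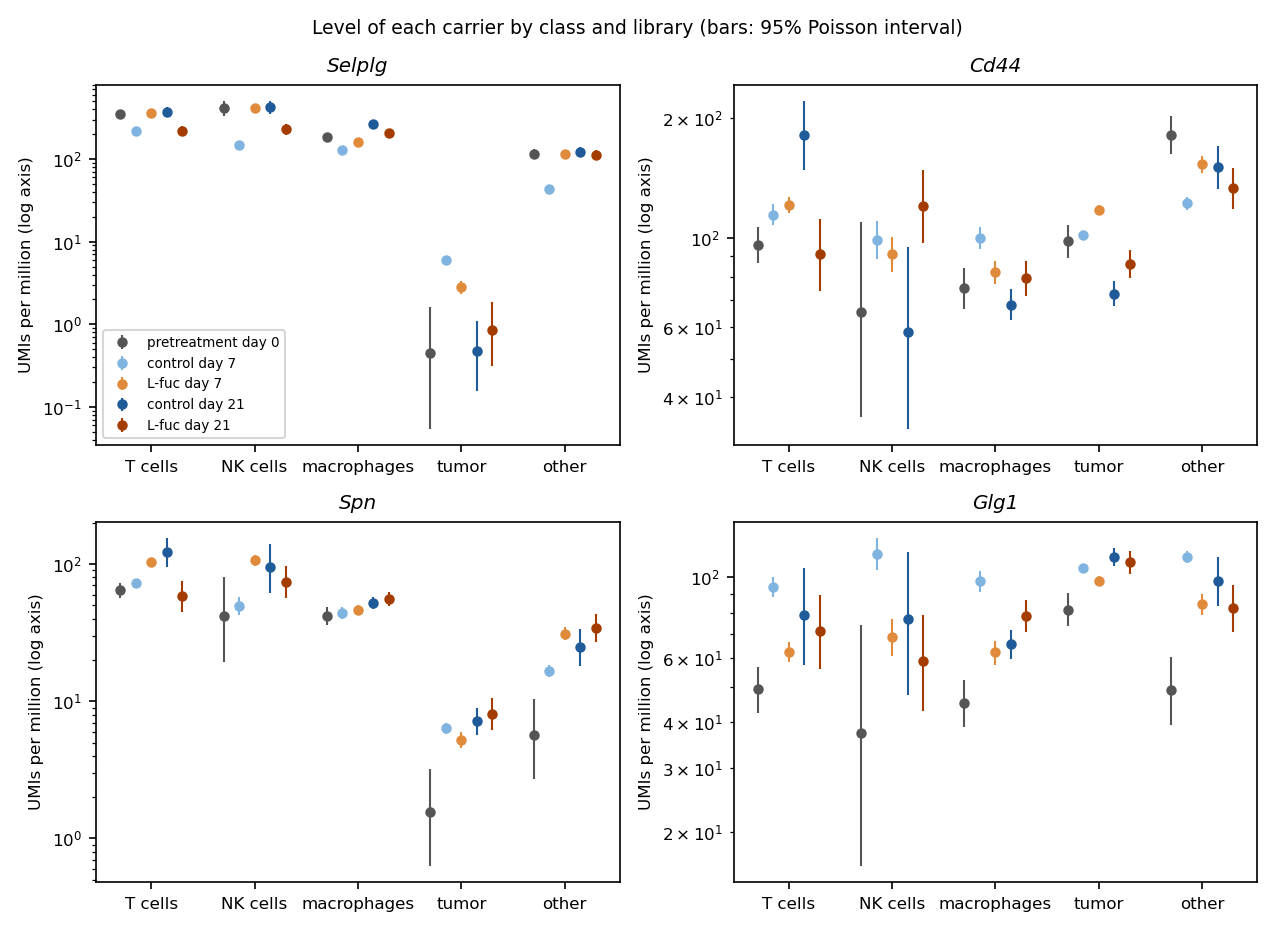
CPM (log axis) of each carrier in the 5 classes, 1 point per library, with exact 95% Poisson intervals. Selplg and Spn lie lowest in tumor barcodes, at no more than 6.06 and 8.10. The levels of Cd44 and Glg1 overlap between T cells, NK cells, macrophages and tumor barcodes.

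Cd44 was found in every class, and its levels overlapped between T cells, NK cells, macrophages and tumor barcodes. T cells held 96.1, 115, 121, 181 and 91.4 CPM in the order of libraries above. The range was 58.4 to 121 in NK cells, 68.2 to 100.2 in macrophages and 72.7 to 118 in tumor barcodes. Tumor barcodes exceeded macrophages in 5 of 5 libraries and NK cells in 4 of 5. The other barcodes, at 122 to 181, exceeded T cells in 4 of 5 libraries and NK cells, macrophages and tumor barcodes in 5 of 5. Cd44 was higher in T cells than in tumor by log2 0.62 ± 0.22 (SE; edgeR, adjusted p = 0.020), a call that was lost when library sizes were used with no normalization factors (log2 0.33, adjusted p = 0.16), when immune barcodes with a tumor gene UMI were removed (0.60, adjusted p = 0.069) and when the pretreatment, control day 7 or control day 21 library was left out (adjusted p = 0.053, 0.063 and 0.13). T cells exceeded macrophages in 5 of 5 libraries, by 1.14 to 2.66 times, yet the test did not pass (log2 0.28 ± 0.22, adjusted p = 0.36).

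Glg1 was higher in tumor barcodes than in T cells and macrophages in 5 of 5 libraries, and than in NK cells in 4 of 5, the exception being the control day 7 library. Tumor barcodes held 81.4, 106, 97.6, 114 and 110 CPM. T cells held 49.2, 94.2, 62.5, 79.0 and 71.2, with all 5 pairs of intervals apart from those of tumor. NK cells ranged from 37.4 to 116 and macrophages from 45.3 to 97.4. The lowest level of Glg1 was in the pretreatment library in all of these classes, and the highest was in the control day 7 library in T cells, NK cells and macrophages. In the test no difference was called (T cells over tumor log2 -0.24 ± 0.11, adjusted p = 0.075). The call depended on the processing. The mean normalization factor was 0.54 log2 units lower in macrophages than in tumor, and without such factors Glg1 was lower than tumor in T cells, NK cells and macrophages (log2 -0.55, -0.53 and -0.58, adjusted p = 0.0020, 0.0052 and 0.00077). DESeq2 called it lower in T cells as well (log2 -0.33, adjusted p = 0.0024), and so did edgeR without the control day 7 library, in T cells (-0.41, adjusted p = 0.0095) and NK cells (-0.45, adjusted p = 0.011). Removal of immune barcodes with a tumor gene UMI gave -0.60 in T cells and -0.52 in NK cells (edgeR, adjusted p = 0.0011 and 0.0082).

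Among T cells, NK cells and macrophages, 0 of 12 carrier tests passed in edgeR, with 1 at an unadjusted p under 0.05 (Glg1, T cells over macrophages, log2 -0.25), and DESeq2 also called 0. Over all genes, 33.0% were called between T cells and macrophages, 13.7% between NK cells and macrophages and 1.84% between T cells and NK cells. A p that misses the threshold does not show equal levels. With the library as a block, the test measures how class differences vary between these 5 libraries, which differ in treatment and day.

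In smaller gates the carriers did not move together. Plasmacytoid dendritic cells (Siglech, 103 barcodes over all libraries) held 663 CPM of Selplg (95% Poisson interval 598 to 733), above T cells of any library, but 19.2 of Spn (9.56 to 34.3), below T cells of any library. Their Selplg level was 656 in the control day 7 library and 623 in the L-fuc day 7 library. Neutrophils (S100a8, S100a9 and Csf3r, 80 barcodes) held 730 of Cd44 (631 to 841), with 631, 693 and 576 in the control day 7, L-fuc day 7 and control day 21 libraries. Their Selplg was 452 (374 to 540) and their Spn 15.1 (4.10 to 38.5), from 4 UMIs in all. Summed over libraries, Selplg in both groups lay above, and Spn below, the T cell level of every library. By library, neutrophil Selplg was 432 in control day 7, 369 (272 to 490) in L-fuc day 7 and 514 in control day 21. The T cells of the L-fuc day 7 library held 367, which lies within the interval of the neutrophils there. That interval rests on 48 UMIs and does not show equal levels. Mast cells (Cpa3, 82 barcodes) held 349 of Selplg and 129 of Spn, and 63 of these barcodes came from the L-fuc day 7 library. In that library their Selplg was 345 (290 to 409). With 14 barcodes, the control day 7 library held 90.1 (29.2 to 210), from 5 UMIs. Spn was at 127 and 108 in these libraries, the latter from 6 UMIs. B cells (Cd79a and Cd79b, 238 barcodes) held 102 of Selplg, with 61.8 to 145 by library. Their Spn varied more, from 1.63 at pretreatment (1 UMI) over 31.8 to 45.0 in 3 libraries to 73.0 with L-fuc at day 21, which was above the T cells of that library. No test between these classes was run, and the intervals cover counting error only.

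**Figure D2:**
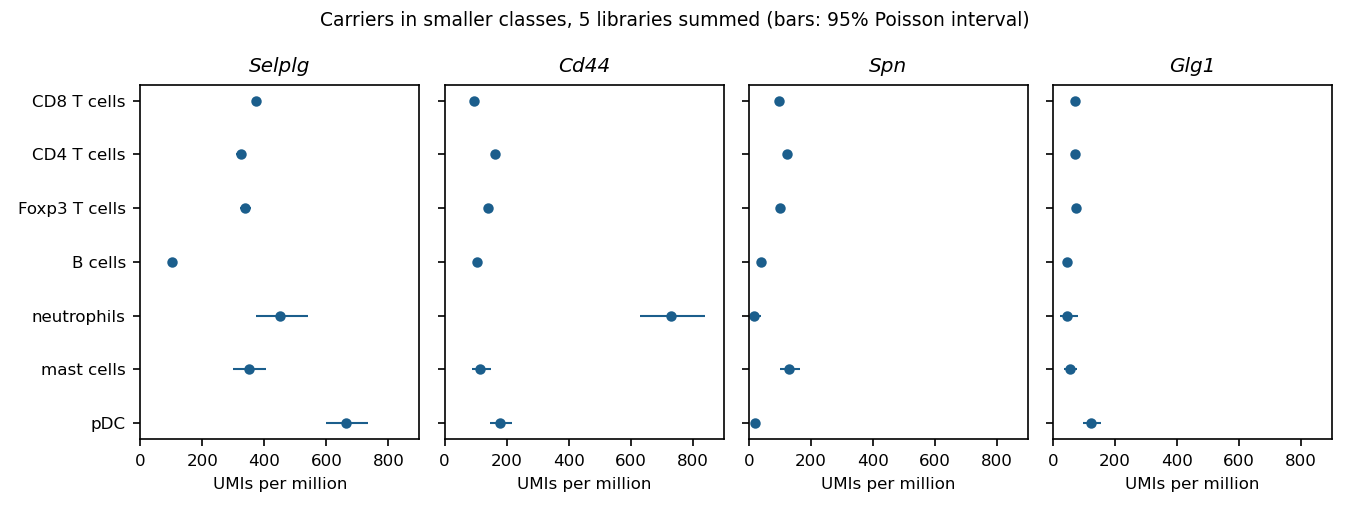
CPM of the carriers in T cell subsets and in B cells, neutrophils, mast cells and plasmacytoid dendritic cells (pDC), summed over the 5 libraries, with exact 95% Poisson intervals. Neutrophils stand out in Cd44 (730) and pDC in Selplg (663), and both lie low in Spn.

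The Cd44 level lay higher in CD4 than in CD8 T cells. CD4 T cells without Foxp3 held 101, 157, 173 and 235 CPM in the pretreatment, control day 7, L-fuc day 7 and control day 21 libraries, against 71.8, 101, 96.7 and 104 in CD8 T cells. CD4 T cells were thus higher in all 4 libraries with at least 10 barcodes of each. At pretreatment the Poisson intervals of CD4 (78.5 to 128) and CD8 T cells (56.4 to 90.2) overlapped. With 4 pairs of libraries no exact permutation test could reach 0.05, and none was run. Summed over libraries, Foxp3 T cells held 139 (95% Poisson interval 128 to 151). Selplg ran the other way in all 4 of these libraries and in the sum, at 325 in CD4 and 373 in CD8 T cells. A further 1768 T-gated barcodes fell in none of these subsets and held 105 of Cd44 and 260 of Selplg in the sum.

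Counted per barcode at an equal depth of 1000 UMIs, a Selplg UMI was seen in 22.4% to 36.0% of T cells, 16.7% to 48.0% of NK cells and 12.8% to 20.9% of macrophages of a library. In tumor barcodes, which should lack the gene, the share was at most 1.08%, although their median depth before thinning was 7410 to 25484 UMIs against 4712 to 10980 in T cells. A Spn UMI was seen in 7.23% to 15.2% of T cells and in at most 1.51% of tumor barcodes. Without thinning, 22.0% to 50% of T cells held both Selplg and Spn, against at most 0.342% of tumor barcodes.

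At day 7 the immune classes of the L-fuc library held more Selplg than those of the control library. The log2 ratio was 0.73 in T cells (95% interval 0.66 to 0.80), 1.47 in NK cells (1.33 to 1.62) and 0.29 in macrophages (0.19 to 0.40), and in tumor barcodes it was -1.11 (-1.42 to -0.81), but 0.0076 when taken as a mean over barcodes. Spn was also higher in T cells (0.51, 0.38 to 0.64) and NK cells (1.10, 0.84 to 1.36), with macrophages at 0.07 (-0.12 to 0.26). Glg1 went the other way, at -0.59 in T cells (-0.72 to -0.46), -0.76 in NK cells (-0.98 to -0.54) and -0.65 in macrophages (-0.79 to -0.50). Cd44 was at 0.08 (-0.03 to 0.19) in T cells, -0.12 (-0.33 to 0.10) in NK cells and -0.29 (-0.42 to -0.15) in macrophages. Past 2-fold were Selplg and Spn in NK cells and Selplg in tumor barcodes. Over all genes with at least 10 UMIs, 14.1% were past 2-fold in T cells, 21.4% in NK cells, 9.26% in macrophages and 9.33% in tumor barcodes, a size that many genes thus reached between these libraries.

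The control day 7 library had low Selplg beside the other libraries, as did the T and NK cells of the L-fuc day 21 library. The control day 7 Selplg level was lower than that of the pretreatment library by a log2 ratio of -0.65 in T cells, -1.47 in NK cells and -0.52 in macrophages, and the control day 21 library exceeded it by 0.74, 1.51 and 1.03. The control day 7 Glg1 level exceeded that of the pretreatment library by 0.94, 1.63 and 1.10. When barcodes holding any UMI of Sox10, Mitf, Pmel or Erbb3 were removed, 789 of 1497 T cells, 301 of 637 NK cells and 690 of 1347 macrophages of the control day 7 library remained, and 1447 of 1820, 585 of 734 and 1065 of 1466 of the L-fuc library. In macrophages Mitf stood at 29.2 to 43.4 CPM over the libraries against 29.3 to 45.5 in tumor barcodes, so a UMI of it does not tell the classes apart. Selplg in the L-fuc library then differed from the control by log2 0.40 in T cells, 0.67 in NK cells and 0.25 in macrophages. For Spn it was 0.15 in T cells and 0.21 in NK cells, and both intervals included 0. In NK cells, 231 barcodes of the control and 169 of the L-fuc library met another gate as well, and without them the ratio was 1.23 for Selplg and 0.82 for Spn. Relative to Ptprc UMIs of the same barcodes, the Selplg ratio was 0.44, 0.55 and 0.41 in T cells, NK cells and macrophages. Per 100 Ptprc UMIs of the control and L-fuc libraries, Spn stood at 16.2 and 18.9 in T cells. It was at 12.8 and 14.5 in NK cells and 18.2 and 20.7 in macrophages. Cd44 stood at 25.6 and 22.2 in T cells, 25.5 and 12.4 in NK cells and 41.3 and 36.7 in macrophages. Ptprc itself was higher in the L-fuc library by 0.29 in T cells and 0.92 in NK cells and lower in macrophages (-0.11). The higher Selplg of the L-fuc library thus kept its direction under both ways of counting, at a smaller size in T and NK cells. Other RNA differed between these libraries as well. The summed level of the T cell markers Trac, Lck, Cd2 and Cd28 in T cells was 399 CPM in the control library against 752 with L-fuc, and that of the NK markers Gzma, Eomes, Prf1 and Klrk1 in NK cells 1076 and 6534. The macrophage markers Csf1r, Adgre1, Apoe and Mrc1 summed to 7153 and 4395 in macrophages. Most of both sums was Apoe, at 6766 and 4005. Csf1r was at 198 and 220, Adgre1 at 148 and 144, and Mrc1 at 41.6 and 25.6. The same macrophage markers summed to 2176 and 631 in T cells and to 1176 and 935 in NK cells. The red cell genes Hba-a1, Hba-a2, Hbb-bs and Alas2 summed to 1054 and 3290 in T cells, 1288 and 4924 in NK cells, and 673 and 4258 in macrophages. None of the genes of these lists was at 0 there. The part of these differences in the carrier ratios was not tested.

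**Figure D3:**
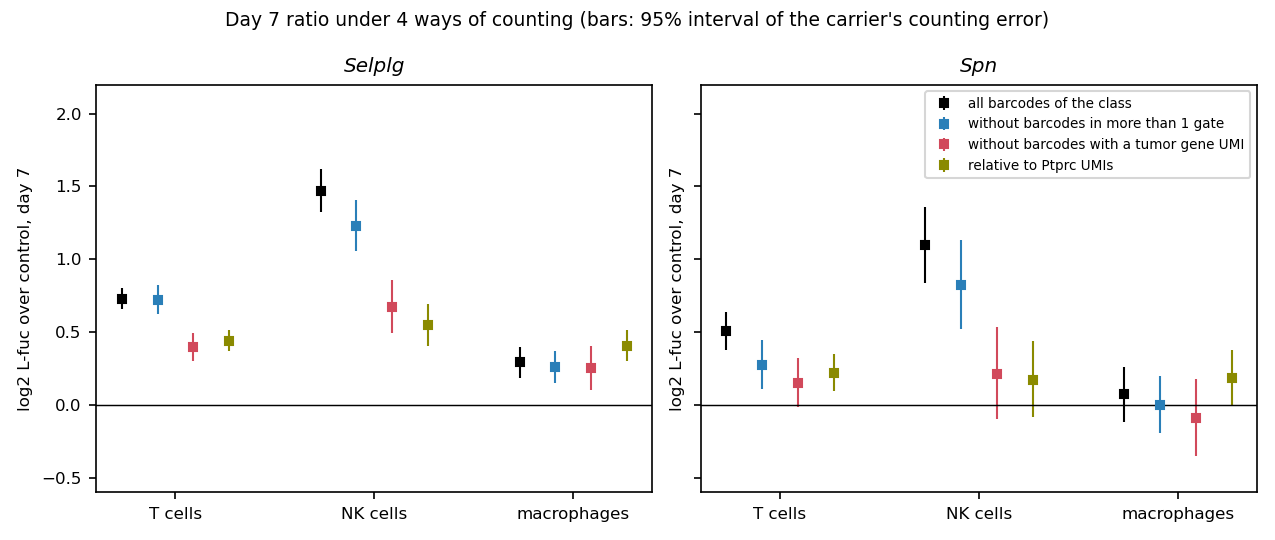
log2 ratio of L-fuc over control at day 7 for Selplg and Spn in 3 immune classes, counted over all barcodes, without barcodes in more than 1 gate, without barcodes that hold a tumor gene UMI, and relative to Ptprc UMIs, with 95% intervals of the carrier's counting error. The NK cell ratio of Selplg moves from 1.47 to 0.67 without tumor gene UMIs, and that of Spn from 1.10 to 0.21.

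At day 21 the ratios rested on few barcodes, with 67 T cells and 24 NK cells in the control library and 50 and 46 in the L-fuc library. Selplg was lower in the L-fuc library by a log2 ratio of -0.74 in T cells (95% interval -1.02 to -0.46), -0.89 in NK cells (-1.23 to -0.53) and -0.37 in macrophages (-0.48 to -0.26). Ptprc was lower too, at -0.79, -0.85 and -0.31, and per 100 Ptprc UMIs Selplg stood at 55.1 and 56.9 in T cells, 54.0 and 52.6 in NK cells and 62.7 and 60.1 in macrophages of the control and L-fuc libraries. The T cell markers summed to 1122 CPM in T cells of the control and 391 in those of the L-fuc library, and the NK markers to 1650 and 697 in NK cells. The T and NK pools also held macrophage RNA. The macrophage markers summed to 3136 and 1001 in T cells and 6759 and 4153 in NK cells, against 8012 and 6563 in macrophages. Csf1r alone was at 256 and 161 in NK cells, against 319 and 288 in macrophages. The B cell markers Cd79a, Cd79b and Ms4a1 summed to 25.1 and 277 in T cells and to 21.9 and 301 in NK cells, with 1 and 2 of these 3 genes at 0 in the control library and 0 in the L-fuc library. The part of these marker differences in the lower Selplg, Cd44 and Spn was not tested. In T cells the log2 ratio of Selplg was -0.037 (-0.37 to 0.30) without barcodes holding a tumor gene UMI, and the sign turned when barcodes that met more than 1 gate were left out (log2 0.11). Cd44 and Spn were lower in T cells as well, at -0.99 (-1.41 to -0.57) and -1.06 (-1.58 to -0.54). Per 100 Ptprc UMIs of the control and L-fuc T cells, Cd44 stood at 27.0 and 23.5 and Spn at 18.2 and 15.1. In macrophages Cd44 was at 0.22 (0.03 to 0.41) and Glg1 at 0.26 (0.06 to 0.45), and in NK cells Cd44 was at 1.04 (0.27 to 1.91), from 16 UMIs in the control library, but at -0.79 as a mean over barcodes. The share of all genes past 2-fold was 22.0% in T cells, 21.9% in NK cells, 7.86% in macrophages and 5.31% in tumor barcodes, and the carriers past it were Spn in T cells and Cd44 in NK cells.

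**Figure D4:**
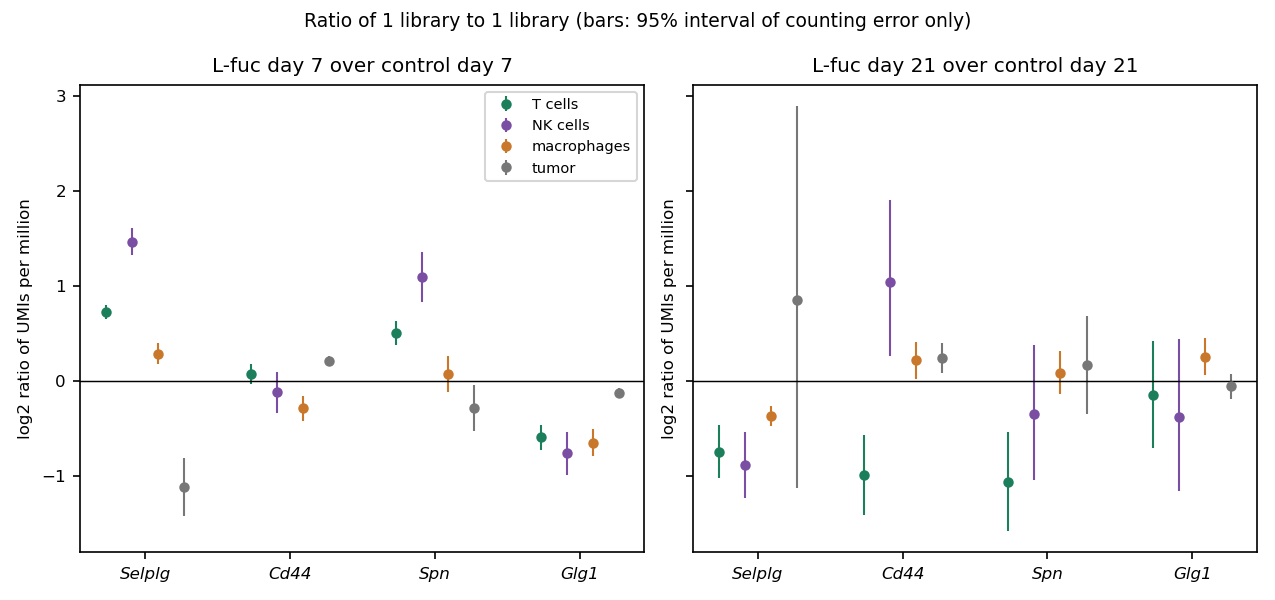
log2 ratio of L-fuc over control for each carrier in T cells, NK cells, macrophages and tumor barcodes at day 7 and day 21, 1 library over 1 library, with exact 95% intervals of counting error. Selplg lies above 0 in the immune classes at day 7 and below 0 at day 21.

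Of the 36 further genes of selectin ligand synthesis and binding, 30 passed the filter on low counts in the class test. Both endothelial selectins on the list, Selp and Sele, were among those that did not, with at most 1.01 CPM in any gated pool. Against tumor, 13 genes were higher and 8 lower in T cells, 13 and 7 in NK cells, and 17 and 10 in macrophages, and the median log2 difference of the list was 0.10, 0.07 and 0.59, beside medians over all genes of 0.03, -0.00 and -0.01. The share of all genes called in these comparisons was 61.7%, 51.4% and 67.5%. There were 11 genes higher than tumor in all 3 immune classes. They include Fut7, the fucosyltransferase that completes sialyl Lewis x in leukocytes (T cells log2 5.94, NK cells 4.69, macrophages 5.07), and Fut4, a further fucosyltransferase (3.90, 4.62 and 5.89). Both were sparse, so the size of these differences is uncertain. Over all libraries Fut7 had 142 UMIs in T cells, 18 in NK cells, 97 in macrophages and 10 in tumor barcodes. Fut4 had 37, 16, 145 and 11. Snx20, a sorting nexin that binds the PSGL-1 tail, was higher by 6.28, 6.37 and 7.13, and the tyrosine sulfotransferase Tpst2 by 1.85, 1.69 and 1.60. The moesin gene Msn, which links such tails to actin, was higher by 1.51, 1.44 and 1.58. Lower than tumor in all 3 were 6 genes, among them the sialyltransferase St3gal4 (-1.66, -1.56 and -1.83), the core 1 galactosyltransferase C1galt1 (-0.96, -0.97 and -1.89), Tpst1 (-1.36, -1.04 and -0.74) and the hyaluronan synthase Has2 (-1.99, -1.93 and -2.86). Without normalization factors 10 of the 11 higher and all 6 lower genes kept their call and direction in all 3 classes, the exception being St3gal6. Of all list genes called against tumor, 20 of 21 in T cells, 19 of 20 in NK cells and 22 of 27 in macrophages kept both. In macrophages Adam10, C1galt1c1 and Gcnt1 turned direction.

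Between T cells and macrophages 5 list genes were higher and 8 lower in T cells, where 33.0% of all genes were called. Chst2, a sulfotransferase of selectin ligands, was higher in T cells than in macrophages (log2 4.06 ± 0.48, adjusted p = 2.3e-05) and NK cells (3.14 ± 0.58, adjusted p = 0.0078) at a median of 4.81 CPM in T cells. Over all libraries Chst2 had 273 UMIs in T cells, 13 in macrophages and 8 in NK cells. It was at 0 in 1 T cell pool and 2 NK cell pools, so the size of these differences is uncertain. The metalloproteinase gene Mmp14, whose product can shed CD44, was lower in T cells than in macrophages (-1.78 ± 0.19, adjusted p = 1.1e-05), as was the sheddase gene Adam17 (-1.05 ± 0.18, adjusted p = 0.00049). Between NK cells and macrophages 3 list genes were higher and 3 lower, where 13.7% of all genes were called, and Chst2 alone was called between T cells and NK cells, where 1.84% were. At day 7, L-fuc over control, 2 list genes were past 2-fold upward and 1 downward in T cells, 4 and 3 in NK cells, 1 and 2 in macrophages, and 1 and 1 in tumor barcodes, of 30, 29, 30 and 31 list genes with enough UMIs. Over all genes the shares past 2-fold were the 14.1%, 21.4%, 9.26% and 9.33% given above. At day 7 Fut7 was higher with L-fuc in T cells (5.95 against 2.52 CPM, 90 and 25 UMIs), and in macrophages (2.72 against 0.976, 30 and 9 UMIs). Over the 5 libraries Fut7 ran from 2.52 to 19.7 CPM in T cells and from 0.976 to 4.98 in macrophages. In both classes the highest level thus lay outside the day 7 libraries. Spp1, which encodes the CD44 ligand osteopontin, was at 549 with L-fuc against 1205 CPM in macrophages at day 7. At day 21, L-fuc over control, 0 list genes were past 2-fold upward and 3 downward in T cells, of 24 with enough UMIs. It was 4 and 1 of 21 in NK cells, 1 and 1 of 28 in macrophages, and 2 and 0 of 26 in tumor. Over all genes the shares were 22.0%, 21.9%, 7.86% and 5.31%.

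**Figure D5:**
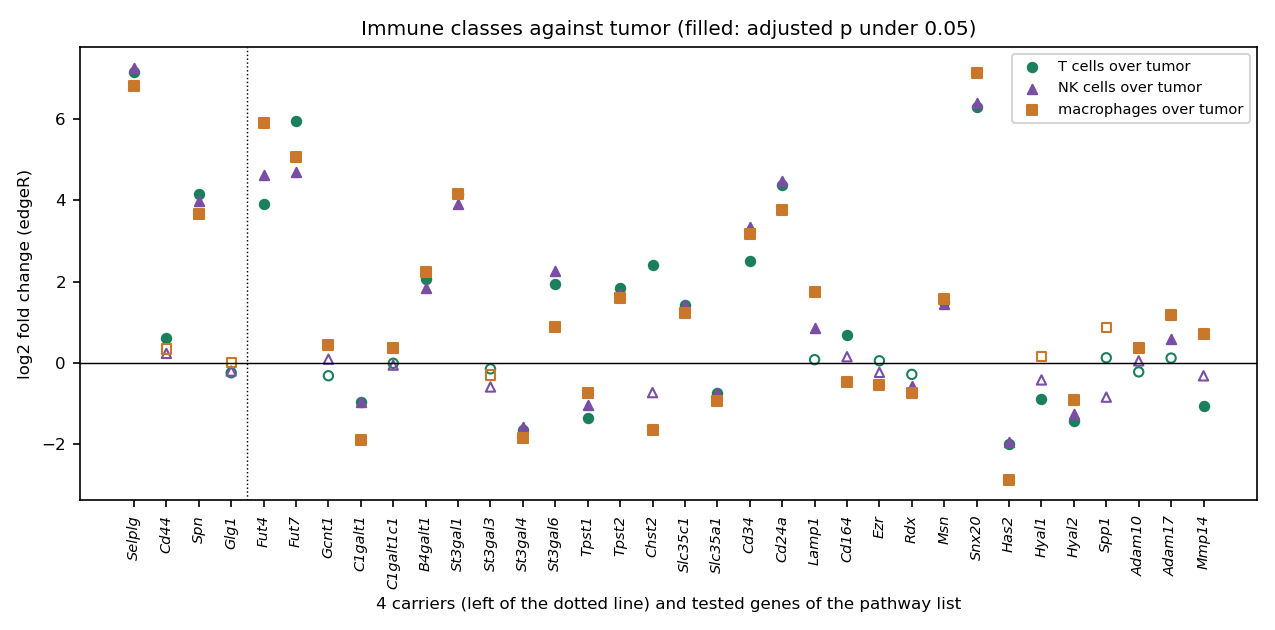
log2 difference between each immune class and tumor for the 4 carriers and the 30 tested genes of the pathway list, and filled points passed an adjusted p of 0.05 in edgeR. Fut4, Fut7, St3gal1 and Snx20 lie high with Selplg and Spn, and St3gal4, C1galt1 and Has2 lie below tumor.

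Across the 20 pools, the genes most like Selplg were Rac2, a GTPase of blood cells (Pearson r = 0.993), AW112010 (0.990) and Ptpn18 (0.986), on log2 levels with 10 added. Spn was most like Selplg itself (0.957), Rac2 and AW112010. Glg1 was most like Atp2a2 (0.927), Map4 and Qk, and its correlation with Selplg was -0.626. Cd44 had no close match, with Maf first at 0.771, and its correlation with Selplg was -0.019. These values describe 20 pools that share libraries and depth, 5 of them tumor pools.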

How the data were processed

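Droplet single-cell RNA and T cell receptor libraries of 5 pooled SW1 cohorts were used. The authors aligned reads to mm10 with Cell Ranger (3.0 in the processing notes, 7.1.0 in the matrix header) and deposited raw UMI counts for each gene and barcode, which were not normalized. The contig tables they deposited hold a UMI count per receptor chain. Barcodes were filtered and gated as described in the report, and one meeting several gates went to the first of T cells, NK cells, macrophages and tumor. No doublet caller was run. UMIs were summed per class and library and divided by all UMIs of the pool (CPM). Levels have exact Poisson and shares exact Clopper-Pearson 95% intervals, and ratios have exact conditional binomial ones. All of these cover counting error only.

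Classes were compared on the sums with edgeR 4.0.16 (quasi-likelihood, TMM factors, filterByExpr, library as a block, Benjamini-Hochberg over 12588 genes, threshold 0.05), in R 4.3.3, with DESeq2 1.42.0 as an alternative. The SE of an edgeR difference was derived as its absolute log2 size divided by the square root of the test's F statistic. On simulated counts of the T cell and macrophage comparison the test was checked before use. The simulation gave every gene the same spread and changed only a small set of genes, so it does not speak for the real comparison. Python 3.11.15, numpy 2.4.6, scipy 1.17.1 and pandas 2.3.3 were used otherwise. List genes needed 10 UMIs in both libraries together, with 0.5 UMIs added. The carriers, the pathway list and the most similar genes (the 3 highest correlations per carrier among genes with a mean of at least 100 CPM, gate genes left out) are named. Carriers and lists were chosen with earlier results of these data known. Removal of tumor gene UMIs, division by Ptprc, the fit without tumor pools and the fit without TMM factors were chosen after seeing the data. Promoter sequence is from RefSeq, whose table held 3 of the 4 carriers. A further gene of the tumor and of the B cell marker list is not reported here.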

Additional observations from a re-analysis of the deposited data

Results flagged for a closer look

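In 6 of the 16 pairs of a carrier and a gated class, the L-fuc over control ratios of day 7 and day 21 lay on opposite sides of 0 with both counting intervals clear of it. The difference between the days was not tested, since each ratio is 1 library over 1 library. The share of all genes with such a turn was not computed, so the count is not a trait of the carriers. Ptprc, not a carrier, turned likewise in T cells (0.29 and -0.79) and NK cells (0.92 and -0.85). In macrophages it was below 0 on both days (-0.11 and -0.31). For Selplg the log2 ratio was 0.73 at day 7 and -0.74 at day 21 in T cells, 1.47 and -0.89 in NK cells, and 0.29 and -0.37 in macrophages. For Spn in T cells it was 0.51 and -1.06. In macrophages Cd44 was at -0.29 and 0.22, and Glg1 at -0.65 and 0.26. In T cells the day 21 ratio of Selplg turned to 0.11 without barcodes that met more than 1 gate, and relative to Ptprc UMIs it was 0.05.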

How the results depend on the processing

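No paired analysis was possible because each condition is 1 pooled library, whose number 1 pairs nothing between conditions. The class tests had the library as a block. Of 24 carrier tests between classes, 7 were called. Leaving out a library gave 6 to 8, and 10 were called without tumor gene UMIs and 11 without TMM factors. Without barcodes in more than 1 gate, 1 of the 7 calls was lost. Among T cells, NK cells and macrophages 0 of 12 were called, and 0 when any library was left out, against 2 without barcodes in more than 1 gate, 1 with T cells by receptor chain, 2 without tumor gene UMIs, 2 without TMM factors and 1 without the tumor pools. The extra calls include Spn in T cells over macrophages under each of these 5. The number of genes called between T cells and macrophages was 4151, and 2563 to 4097 with a library left out, the lowest without L-fuc day 7. Between NK cells and macrophages it was 1726, and 209 (without L-fuc day 7) to 1614 with a library left out, 896 without control day 7, 1111 without pretreatment, 3819 without barcodes in more than 1 gate, 1045 with T cells by receptor chain, 2816 with macrophages by at least 30 C1q UMIs, 3310 without tumor gene UMIs and 888 without the library block. Between T cells and NK cells it was 231, and 59 (without L-fuc day 7) to 229 with a library left out, 146 without pretreatment, 436 with T cells by receptor chain, 433 without tumor gene UMIs and 392 in DESeq2. The cause was not tested. The number of libraries in which T cells exceeded macrophages fell from 5 to 0 for Selplg, to 2 for Cd44 and to 1 for Spn per 100 Ptprc UMIs. The ratios at day 21 with an interval below 0 numbered 5, and 3 without barcodes in more than 1 gate. List genes past the fold over 4 classes numbered 15 at day 7 and 12 at day 21, 39 and 28 at a fold of 1.5, and 7 and 6 at a minimum of 50 UMIs. In T cells, NK cells, macrophages and tumor, 30, 29, 30 and 31 list genes were tested at day 7. At day 21 it was 24, 21, 28 and 26. With the 50 UMI minimum it was 29, 25, 27 and 28, and 15, 13, 27 and 23. Of all genes in these classes, 16.8% to 41.1% were past 1.5-fold at day 7 and 13.1% to 44.3% at day 21. With the 50 UMI minimum, 4.87% to 16.7% and 1.65% to 14.6% were past 2-fold.

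Signs turned as follows, in log2. Glg1 in macrophages over tumor (0.01) was -0.082 without barcodes in more than 1 gate, -0.0062 with T cells by receptor chain, -0.25 without tumor gene UMIs, -0.12 in DESeq2, -0.043 with no filter on low counts, -0.58 without TMM factors, and -0.26 to 0.032 with a library left out (below 0 without control day 7 or L-fuc day 21). Without TMM factors Glg1 was 0.031 in T cells and 0.054 in NK cells over macrophages, and Cd44 was 0.14 in NK cells over macrophages, -0.088 in NK cells over tumor and -0.23 in macrophages over tumor. Cd44 in NK cells over tumor was -0.26 without barcodes in more than 1 gate, and -0.039 (without L-fuc day 21) to 0.30 with a library left out. Cd44 in NK cells over macrophages was -0.33 to 0.039 and Glg1 in T cells over NK cells -0.12 to 0.040 with a library left out, above 0 without control day 7. Selplg in T cells over NK cells was 0.064 with T cells by receptor chain, and Spn -0.13 without tumor gene UMIs. As a mean over barcodes, the day 7 ratio of Selplg in tumor was 0.0076 and the day 21 ratio of Cd44 in NK cells -0.79. The day 21 ratio of Selplg in T cells was 0.11 without barcodes in more than 1 gate and 0.048 per Ptprc UMIs. The smallest pool, NK cells of control day 21, had 24 barcodes, and 9 without barcodes in more than 1 gate, which left no ratio there.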
